A study of Oryza sativa with 26 samples.

Results

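The Aux/IAA repressors and the auxin response factors (ARFs) of rice were followed through the development of the lamina joint, the tissue where the blade bends away from its sheath and which sets the leaf angle. Members were the genes whose symbol or synonym, with the Os prefix removed, is IAA1 to IAA31 or ARF1 to ARF25, which gives 56 names, 31 of Aux/IAA genes and 25 of ARFs. A gene was found for 51 names, and 43 of these (26 Aux/IAA, 17 ARF) had a probe set that matches no other gene, out of 17905 genes with such a probe set. No gene was matched by name for IAA22, IAA27, IAA28, ARF11 and ARF20. For IAA11, IAA29, ARF5, ARF6, ARF8, ARF19, ARF21 and ARF25 a gene was matched but no single-gene probe set, so these 8 are not analysed here.

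Auxin acts on transcription through these families. At low auxin, Aux/IAA proteins bind ARFs on auxin response elements and, with TOPLESS-type co-repressors, keep their targets silent; auxin joins Aux/IAA proteins to the TIR1/AFB receptors, the Aux/IAA proteins are degraded, and the ARFs are released. Many Aux/IAA genes are themselves early targets of auxin, so their transcripts are often read as part of the response, and in rice auxin is known to reduce leaf inclination while brassinosteroids increase it.

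Plants of the japonica cultivar Zhonghua 11, with no genetic change or treatment named, grew in a greenhouse, and hand-cut tissue was frozen for Affymetrix rice genome arrays. Joints came from 3 leaves, counted down from the last leaf a plant formed, giving the last joint, then the second, then the third. At stage 2 joints were young and whitish (60, 55 and 50 days after sowing in that order), at stage 4 mature with the leaf upright (65, 60 and 55 days), at stage 5 the leaf angle was widening (70, 65 and 60 days), and at stage 6 joints were senescent and dehydrated (80, 75 and 70 days). A green piece of the third leaf at stage 4 (55 days) was the leaf control. Within a leaf position stage and plant age move together and cannot be told apart. Each of the 13 groups holds 2 arrays, 26 in all, which the labels call biological replicates without naming separate plants, so a p-value reflects no more than how far these samples scatter, which may be technical.

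The arrays had medians of 5.07 to 5.17 on the log2 scale, and paired arrays of a group correlated at r = 0.971 to 0.995 across probe sets. One array stood apart by its upper quartile (second joint, stage 5, replicate 1, at 7.50 against 7.90 to 8.07 elsewhere). The difference between the 3′ and 5′ Gapdh probe sets, a measure of RNA integrity, was 2.93 to 3.78 on 9 arrays and 1.47 to 2.09 on the others. Those 9 were all 6 arrays of stage 6, both of the last joint at stage 5, and replicate 2 of the third joint at stage 4, the highest. The array's other Gapdh pair of probe sets did not set these 9 apart (0.06 to 0.43, against -0.12 to 1.12 on the others), and its highest value was on the array with the low upper quartile. Below, the Gapdh difference is the first of these measures. LG1, the liguleless gene that marks the blade-sheath boundary, read 7.52 to 9.89 in joints and 5.84 to 6.03 in the leaf piece.

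All values below are log2 expression levels of a gene's brightest probe set, so levels are compared only within a gene, and a difference of 1 is 2-fold. A difference was called at an adjusted p under 0.05 by limma (Benjamini-Hochberg adjustment across the 57258 probe sets in the fit) together with a 2-fold change or more. Of the 43 members, 14 were called in at least 1 of the 7 main comparisons, 11 of 26 Aux/IAA genes and 3 of 17 ARFs. The share of all probe sets called in at least 1 of the 7 was not counted, so these counts have no background. The stage 2 to 4 comparison alone called 11.5% of all probe sets. The 3 ARFs were ARF12, ARF17 and ARF22. Among joint groups the Aux/IAA genes ranged more widely than the ARFs: the median span between a gene's highest and lowest joint group mean was 2.09 for Aux/IAA, 1.17 for ARFs and 0.72 for all probe sets (2.35, 1.27 and 1.24 among those that were not dim). Dim means a mean over all arrays under 5.11, the median of all values, and IAA4, IAA7, IAA8, IAA16, IAA20, IAA26 and ARF13 were dim.

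**Figure D1:**
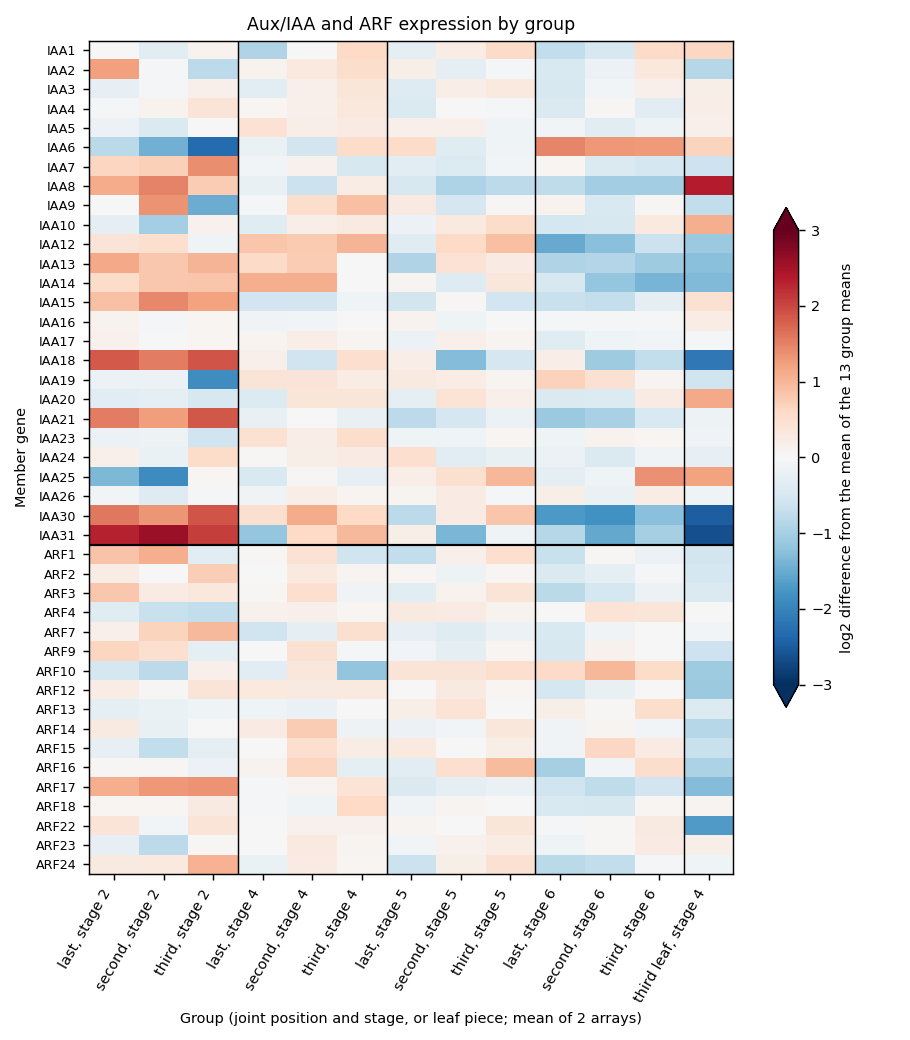
Group means of the 43 members (rows, Aux/IAA above the line and ARFs below) in the 13 groups (columns, ordered by stage and joint position, the leaf piece last), as the log2 difference from the gene's mean over the 13 groups. IAA18, IAA30 and IAA31 run from red at stage 2 to blue in the leaf piece, and IAA6 runs the other way across the stages; most ARF rows are pale.

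Joint and leaf were compared in the third leaf at stage 4, which asks which members differ between the hinge and the blade tissue beside it on the same day. Of the 43 members, 9 differed, 8 higher in the joint and 1 lower, which is 20.9% against 7.41% of all probe sets tested (3.42% higher, 3.99% lower). Among probe sets that were not dim, 8 of 36 members were called, 22.2% against 14.3%. The Aux/IAA genes had 5 higher and 1 lower, with a median difference of 0.16, and the ARFs had 3 higher and 0 lower, with a median of 0.55; over all probe sets the median was -0.00. In bulk tissue, fewer cells of a type and less RNA per cell cannot be told apart.

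IAA31 and IAA30 are neighbours on chromosome 12 in the gene table and showed the widest gaps. IAA31 read 10.55 and 10.68 in the joint and 7.04 and 6.98 in the leaf, a difference of 3.60 (SE 0.308, limma adjusted p = 1.14e-06). IAA30 read 11.72 and 12.10 against 8.88 and 8.82, a difference of 3.06 (SE 0.328, adjusted p = 1.18e-05). Both joint arrays were far above both leaf arrays for each gene. IAA18 followed with 9.75 and 9.29 in the joint and 6.63 and 7.11 in the leaf, a difference of 2.65 (SE 0.366, adjusted p = 0.00014). IAA12, an Aux/IAA gene that acts on leaf inclination in rice, read 10.07 and 10.56 against 8.39 and 7.97, a difference of 2.14 (SE 0.361, adjusted p = 0.000787). IAA13, known from stabilised mutants that lack lateral roots, read 12.90 and 12.77 against 11.56 and 11.53, a difference of 1.29 (SE 0.223, adjusted p = 0.00096). The arrays of joint and leaf did not overlap for any of these 5 genes. IAA31 also has a second, dim probe set, which showed no joint excess (-0.18).

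The single member lower in the joint was IAA8, at 4.61 and 4.64 in the joint and 6.76 on both leaf arrays, a difference of -2.13 (SE 0.204, adjusted p = 3.51e-06). It is a dim probe set over the series, and its level in the leaf piece was above that of every joint array. The other probe set of IAA8 is dim too and differed by -0.12.

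Among the ARFs, ARF22, a target of microRNA160, read 11.34 and 11.64 in the joint and 9.67 and 9.64 in the leaf, a difference of 1.83 (SE 0.187, adjusted p = 7.05e-06). ARF17, a target of microRNA167 of the activator class that has been tied to leaf inclination, read 11.86 and 11.68 against 10.08 and 10.06, a difference of 1.70 (SE 0.186, adjusted p = 1.44e-05). ARF12, of the same class and also a microRNA167 target, read 13.02 and 13.09 against 11.51 and 11.76, a difference of 1.42 (SE 0.146, adjusted p = 7.58e-06). For all 3 the joint arrays were above the leaf arrays with no overlap. Below 2-fold, IAA19 (0.83, adjusted p = 0.0487), ARF7 (0.55, adjusted p = 0.0288) and ARF15 (0.90, adjusted p = 0.0263) were also higher in the joint, making 11 higher and 1 lower at the adjusted p alone, which 10.1% of all probe sets passed.

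Beside these differences, green leaf markers were lower in the joint: 8 of 10 were measured and 5 of those 8 were called lower, with a summed level of 13.94 to 14.14 in the joint and 15.74 to 15.76 in the leaf. Over the 12 joint groups that summed level ranged from 11.97 to 14.79. Of 8 KNOX genes measured, 2 were higher in the joint, OSH71 and HOS66. The summed KNOX level was 13.46 to 13.49 in the joint against 13.90 to 14.24 in the leaf. It rests mostly on HOS58 and HOS59, and HOS59 read 12.69 and 12.72 against 13.22 and 13.80. OSH1, OSH3 and OSH6 were dim, so the sum is not read as a measure of meristem. Of 10 panicle MADS genes 1 was higher. The part of tissue makeup in the member differences was not tested. Without the stage 4 joint array with the high Gapdh difference the counts were again 8 higher and 1 lower.

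The leaf piece was taken at stage 4 alone, but its levels can be set beside all 12 joint groups. For 13 of the 43 members (30.2%) every joint group mean lay above the leaf mean, against 11.8% of all probe sets; among ARFs it was 7 of 17 (41.2%). Those 7 were ARF2, ARF9, ARF12, ARF13, ARF14, ARF17 and ARF22. ARF22 varied least among them, with joint group means from 11.28 to 11.74 and a leaf mean of 9.66. The 6 Aux/IAA genes were IAA2, IAA7, IAA13, IAA18, IAA30 and IAA31. For 5 members, IAA1, IAA8, IAA10, IAA16 and IAA20, every joint group mean lay below the leaf mean, 11.6% against 14.5% of all probe sets. Among those not dim it was 2 of 36 members, 5.56% against 19.1%. These counts have no test.

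**Figure D2:**
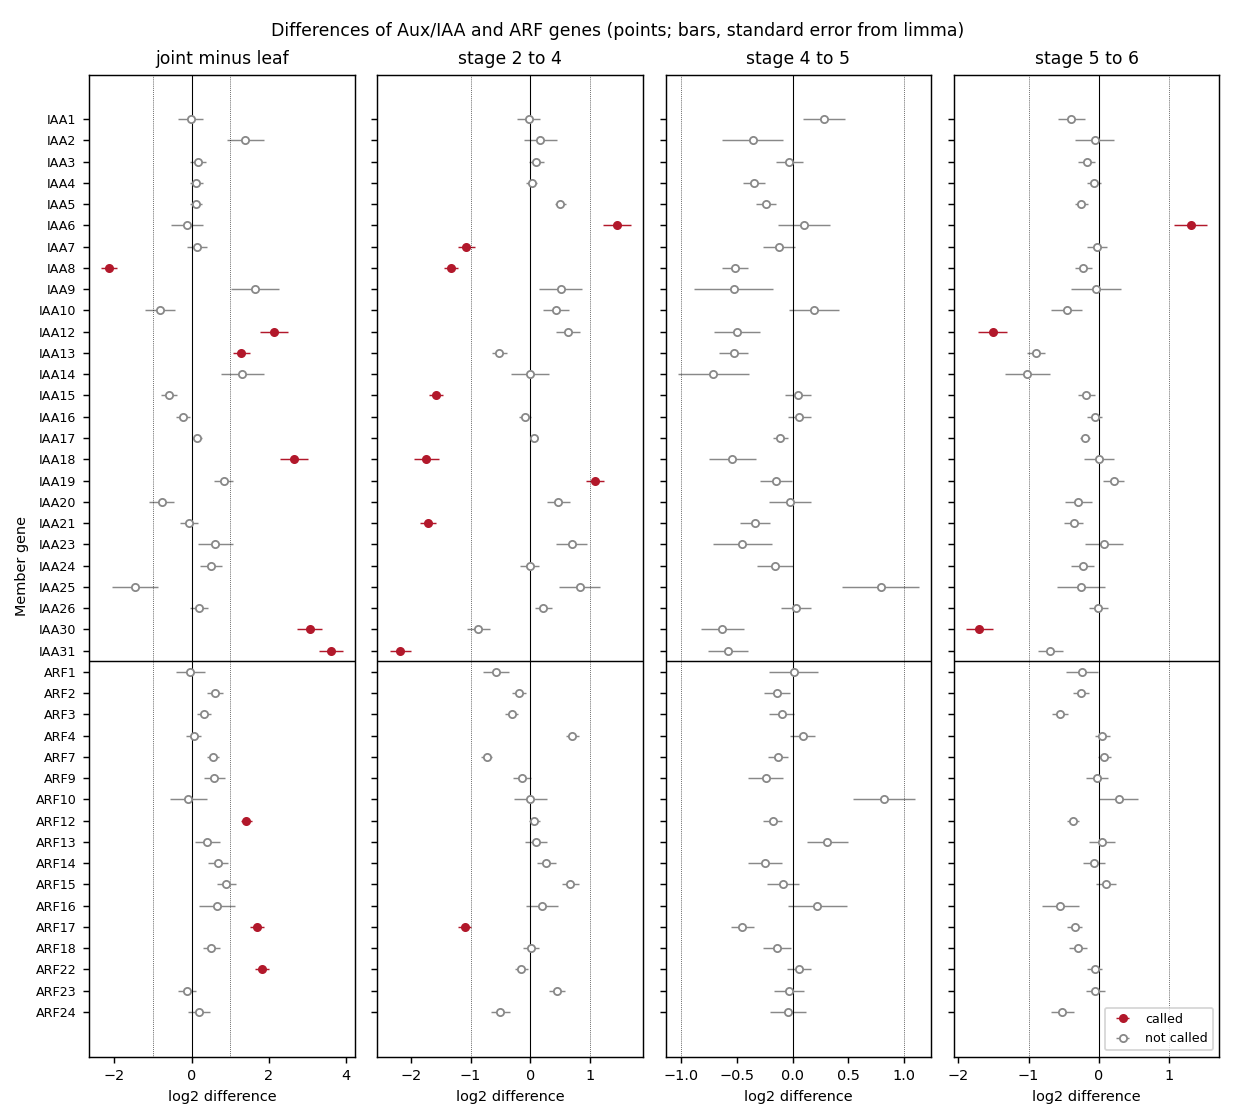
Log2 differences of the 43 members (points, with standard errors from limma) for joint minus leaf and the 3 stage steps; filled red points were called, dotted lines mark 2-fold, and the horizontal scales differ between panels. Called points lie at both ends of the first pair of panels, none is called from stage 4 to 5, and 3 are called from stage 5 to 6.

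From stage 2 to 4, as the joint matured, more Aux/IAA genes fell than rose. Averaged over the 3 leaf positions, 9 of 43 members changed, 2 rising and 7 falling, or 20.9% against 11.5% of all probe sets (5.67% higher, 5.8% lower). Among probe sets that were not dim, 7 of 36 members were called (19.4%), close to the 19.7% of all such probe sets. Of the Aux/IAA genes 2 rose and 6 fell, with a median of 0.04, and of the ARFs 0 rose and 1 fell, with a median of 0.00, the median of all probe sets being 0.00. At the adjusted p alone, 7 members rose and 12 fell, against 29.3% of all probe sets in either direction.

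IAA31 fell most. Its 6 joint arrays of stage 2 ran from 11.60 through a median of 11.96 to 12.28, and those of stage 4 from 8.44 through 10.24 to 10.68, a change of -2.18 (SE 0.178, adjusted p = 5.53e-08). IAA18 went from 10.32, 10.84 and 10.98 (lowest, median and highest) to 8.20, 9.06 and 9.75, a change of -1.74 (SE 0.212, adjusted p = 5.65e-06). IAA21 went from 12.07, 12.62 and 13.07 to 10.59, 11.02 and 11.13, a change of -1.71 (SE 0.134, adjusted p = 3.47e-08). No stage 4 array of these 3 genes reached the lowest stage 2 array. IAA15 (from a median of 11.54 to 10.03; -1.58, adjusted p = 2.09e-08) and ARF17 (from 12.65 to 11.46; -1.10, adjusted p = 4.43e-07) fell without overlap as well. IAA8 (-1.33) and IAA7 (-1.07), both dim, completed the 7. The second probe sets of IAA31 and IAA8, both dim, differed by -0.11 and -0.07 over this step and were not called.

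Within positions, 0 members rose and 7 fell in the last joint, 4 rose and 6 fell in the second, and 4 rose and 6 fell in the third, against 9.08%, 10.9% and 14.5% of all probe sets. IAA21, IAA15, IAA18 and IAA31 were called lower in each, and ARF17 and IAA8 in 2 of the 3. The steps of IAA21 were -1.78 in the last joint, -1.27 in the second and -2.07 in the third, and those of IAA15 were -1.44, -1.98 and -1.33. For IAA18 they were -1.71, -2.13 and -1.39, and each of these 9 steps was called. The calls of IAA21 and IAA15 held in every alternative. That of IAA18 in the last joint was lost without replicate 1 of stage 4. In the third joint the IAA18 call was lost in 4 of 33 alternatives, the Gapdh covariate among them. ARF17 was called in the last (-1.14) and second (-1.23) joint and fell by 0.94 in the third (adjusted p = 0.00125, under 2-fold). The leaf piece read 11.03 and 10.81 for IAA21, within the range of the stage 4 joints, while its IAA18 and ARF17 levels were below every joint array.

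The members that rose were IAA6, an Aux/IAA gene of rice linked to drought tolerance and tillering, and IAA19. IAA6 went from 7.29, 8.18 and 8.93 at stage 2 to 8.72, 9.60 and 10.41 at stage 4, a change of 1.45 (SE 0.234, adjusted p = 0.000114), and the ranges of the stages overlapped. Within positions its difference was 0.61 in the last joint, 0.88 in the second and 2.85 in the third, of which the third was called (adjusted p = 6.14e-05). IAA19 went from 6.18, 8.06 and 8.59 to 8.63, 8.84 and 8.94, a change of 1.08 (SE 0.147, adjusted p = 2.03e-05), without overlap. Again the third joint carried the call, with 2.10 there against 0.57 and 0.56 in the last and second. Leaving out replicate 2 of stage 2 in any 1 of the 3 positions took IAA19 under 2-fold (0.93 at the lowest).

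At limma's adjusted p alone, 3 ARFs rose and 4 fell, and 4 Aux/IAA genes rose and 8 fell. Not every fall is named here. Below 2-fold, ARF4 (0.70, adjusted p = 8.55e-05), ARF15 (0.67, adjusted p = 0.00152) and ARF23 (0.45, adjusted p = 0.015) rose. ARF7, 1 of 3 ARFs outside the activator class that fell, did so by 0.73 (adjusted p = 5.81e-06). The second probe set of ARF23, which was not dim, differed by 0.12 (limma adjusted p = 0.668). ARF4 arrays of stage 4 ran from 11.97 to 12.26 and those of stage 2 from 11.02 to 11.67. IAA30 fell by 0.87 (adjusted p = 0.00175), and IAA12 and IAA5 rose by 0.63 (adjusted p = 0.0309) and 0.50 (adjusted p = 0.000309).

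**Figure D3:**
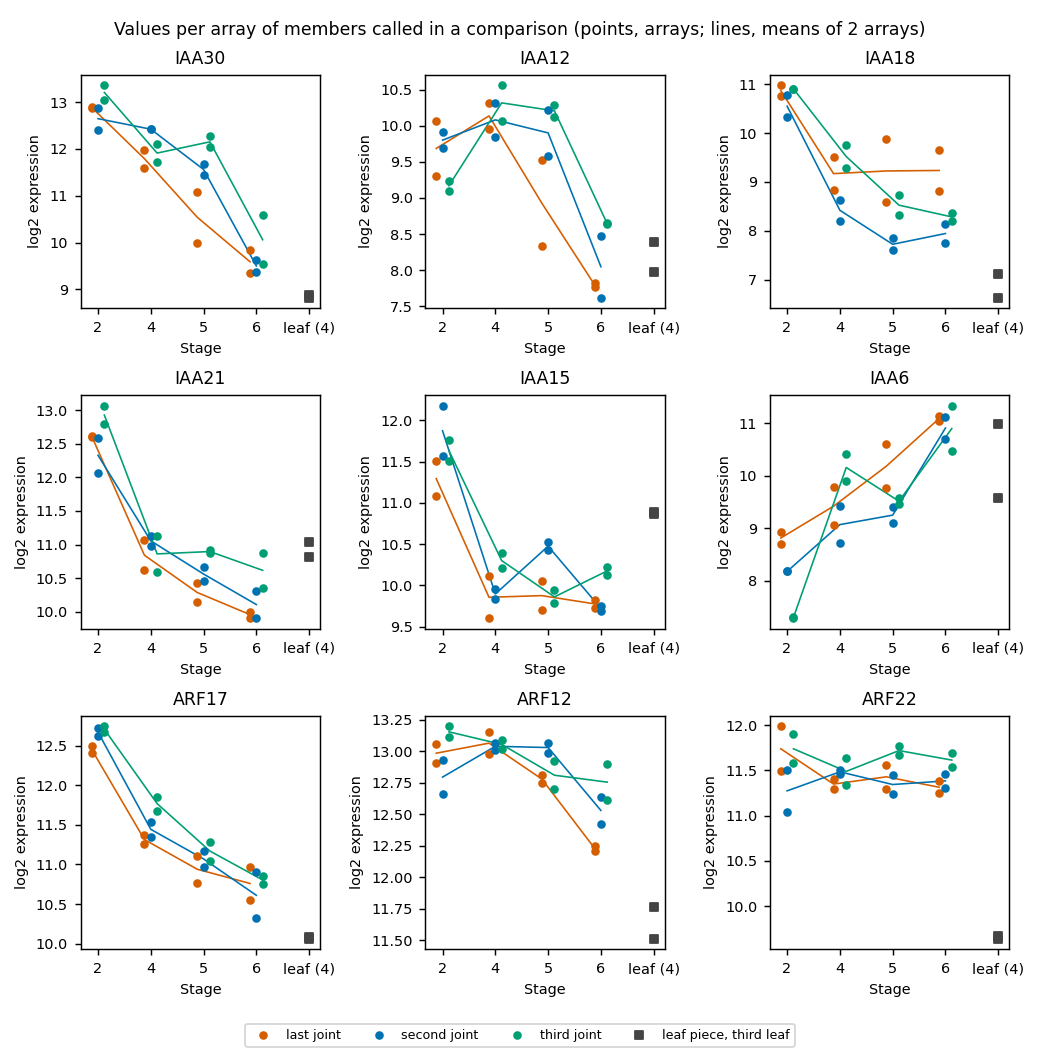
Log2 expression on each array of 9 called members by stage (horizontal axis) and joint position (colours), with the 2 arrays of the stage 4 leaf piece as squares; lines join means of 2 arrays. IAA18, IAA21, IAA15 and ARF17 drop between stages 2 and 4, IAA30 and IAA12 between 5 and 6, and ARF22 stays between 11.04 and 11.99 in joints with the leaf at 9.64 and 9.67.

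From stage 4 to 5, when the leaf angle began to widen, limma called 0 of 43 members, against 0.695% of all probe sets. At an unadjusted p under 0.05 there were 14 members, a limit at which the share of all probe sets was not counted. At the adjusted p alone there was 1, the dim IAA8 (-0.52, adjusted p = 0.0384), against 1.27% of all probe sets. The median over Aux/IAA genes was -0.20 and over ARFs -0.09, with -0.01 over all probe sets. ARF17 read 10.77, 11.08 and 11.29 at stage 5, below its stage 4 median of 11.46 on every array (-0.45, adjusted p = 0.0505). Within positions 3 Aux/IAA genes were called, 1 of 43 members in each, against 0.791% of all probe sets in the last joint, 1.29% in the second and 0.754% in the third. IAA13 changed by -1.48 in the last joint (13.44 and 13.35 to 12.22 and 11.61, adjusted p = 0.00479), IAA31 by -1.96 in the second (10.52 and 9.96 to 8.47 and 8.10, adjusted p = 0.00501) and the dim IAA8 by -1.00 in the third (adjusted p = 0.029).

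None of these 3 calls held in every alternative. IAA8 lost its call in 8 of 33, among them the Gapdh covariate, further quantile normalization and the loss of any 1 of the 4 arrays compared, and its other probe set gave -0.04. IAA31 lost its call without replicate 1 of the second joint at stage 4 and with its second probe set. The call for IAA13 in the last joint was lost without replicate 2 of that joint at stage 4 or at stage 5. The stage 5 arrays there also had the higher Gapdh difference, and with that difference as a covariate the step was no longer called, its adjusted p over all settings running up to 0.195.

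From stage 5 to 6, into senescence, 3 of 43 members changed, all of them Aux/IAA genes, 1 rising and 2 falling. That is 6.98% against 1.74% of all probe sets (0.899% higher, 0.837% lower). Among probe sets that were not dim it was 11.1% against 3.41%. The median was -0.21 over Aux/IAA genes, -0.07 over ARFs and -0.00 over all probe sets. At the adjusted p alone, which 5.4% of all probe sets passed, 1 member rose and 6 fell, with IAA13 (-0.89, adjusted p = 0.00076), IAA31 (-0.69, adjusted p = 0.0323), ARF3 (-0.55, adjusted p = 0.00806) and ARF12 (-0.37, adjusted p = 0.0171) joining the calls.

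IAA30 went from 10.00, 11.56 and 12.27 at stage 5 to 9.34, 9.59 and 10.58 at stage 6, a change of -1.70 (SE 0.19, adjusted p = 9.4e-05). Its step was -0.95 in the last joint, where stage 5 was already lower at 11.08 and 10.00, and -2.06 and -2.09 in the second and the third, both called. In the second joint IAA6 rose and IAA30, IAA12 and IAA13 fell, 4 of 43 members against 3.93% of all probe sets, and in the third the same 3 fell, against 1.03%. In the last joint 0 members were called by limma (0.14% of all probe sets). There 8 had an unadjusted p under 0.05, a limit at which the share of all probe sets was not counted. IAA12 went from 8.33, 9.85 and 10.29 to 7.62, 8.15 and 8.65, a change of -1.51 (SE 0.208, adjusted p = 0.000523). By stage 6 the joint means of IAA12 in the last (7.80) and second (8.05) joint were under the leaf mean of 8.18. The stage ranges of both genes overlapped through the last joint at stage 5.

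IAA6 rose again. Its stage 5 arrays ran from 9.10 through 9.52 to 10.60 and its stage 6 arrays from 10.46 through 11.07 to 11.33, a change of 1.31 (SE 0.234, adjusted p = 0.00351). The difference was 0.90 in the last joint, 1.66 in the second and 1.38 in the third, and of these the second was called. The leaf arrays read 9.57 and 10.99, a wider gap than the rise. All stage 6 arrays had the higher Gapdh difference, and with that difference as a covariate the rise of IAA6 was 0.90 (limma adjusted p = 0.212). Averaged over the positions, IAA30 and IAA12 were called in every alternative run, with changes of -1.88 to -1.52 and -1.71 to -1.31. Within positions, the Gapdh covariate ended the calls of IAA6, IAA12 and IAA13 in the second joint and of IAA30, IAA12 and IAA13 in the third, and of these 7 calls IAA30 in the second joint alone held in every alternative. The call of IAA12 in the third joint was lost in 15 of 33 alternatives (-1.64 to -1.47, adjusted p up to 0.395). Single arrays also ended calls: IAA30 and IAA13 in the third joint without replicate 2 of stage 5 or 6, IAA12 in the second without replicate 2 of stage 6, and IAA6 in the second without replicate 1 of stage 5 or either array of stage 6.

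Over the 4 stages, 19 of 43 members had their highest mean at stage 2, 13 at stage 4, 5 at stage 5 and 6 at stage 6, or 44.2%, 30.2%, 11.6% and 14%. For all probe sets the shares were 37.3%, 16.9%, 17.8% and 28%. The 6 members highest at stage 6 were IAA6, IAA19, ARF4, ARF10, ARF13 and ARF15. ARF4 moved little after stage 2, with stage means of 11.40, 12.11, 12.20 and 12.25.

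The leaf positions were then compared over all 4 stages, which asks whether joints of leaves formed at different times differ. limma called 0 of 43 members in each pair. The background was 1.14% of all probe sets for the last against the third joint, 0.189% for the last against the second and 0.375% for the second against the third. An unadjusted p under 0.05 was reached by 20, 14 and 14 members, a looser limit at which the share of all probe sets was not counted. At the adjusted p alone, 6 members were lower in the last joint than in the third and 1 was higher (5.3% of all probe sets passed). IAA18 (0.97, adjusted p = 0.021) was higher in the last joint than in the second (0.723%), and in the second joint IAA19 (0.59, adjusted p = 0.0264) was higher and ARF7 (-0.34, adjusted p = 0.0334) lower than in the third (1.85%). Joints of the same stage differ in plant age between positions.

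A rice gene named IAA1 is reported to link auxin and brassinosteroid responses, but IAA1 is also a synonym of IAA13, to which that role may belong. The gene read as IAA1 here had the largest difference of the members that passed between the last and the third joint, at -0.93 (SE 0.162, limma adjusted p = 0.00338). Its arrays of the last joint read 9.04, 10.04 and 10.53 (lowest, median and highest of 8 arrays) and those of the third joint 10.31, 10.89 and 11.40. ARF24 (-0.73, adjusted p = 0.00717), IAA30 (-0.63, adjusted p = 0.0348), ARF7 (-0.61, adjusted p = 0.000347), IAA3 (-0.59, adjusted p = 0.00402) and the dim IAA4 (-0.31, adjusted p = 0.0457) were the others lower, and IAA19 (0.66, adjusted p = 0.00644) was higher. The second probe sets, all dim, differed by -0.41 for IAA1 (limma adjusted p = 0.0163), -0.13 for IAA3 (adjusted p = 0.546) and 0.01 for IAA4 (adjusted p = 0.969). The noisier IAA25 differed by -1.02 and did not pass (SE 0.297, adjusted p = 0.0582). IAA1 passed 2-fold without replicate 1 of stage 4 in the last or in the third joint and with the Gapdh covariate, at -1.02 to -1.05.

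**Figure D4:**
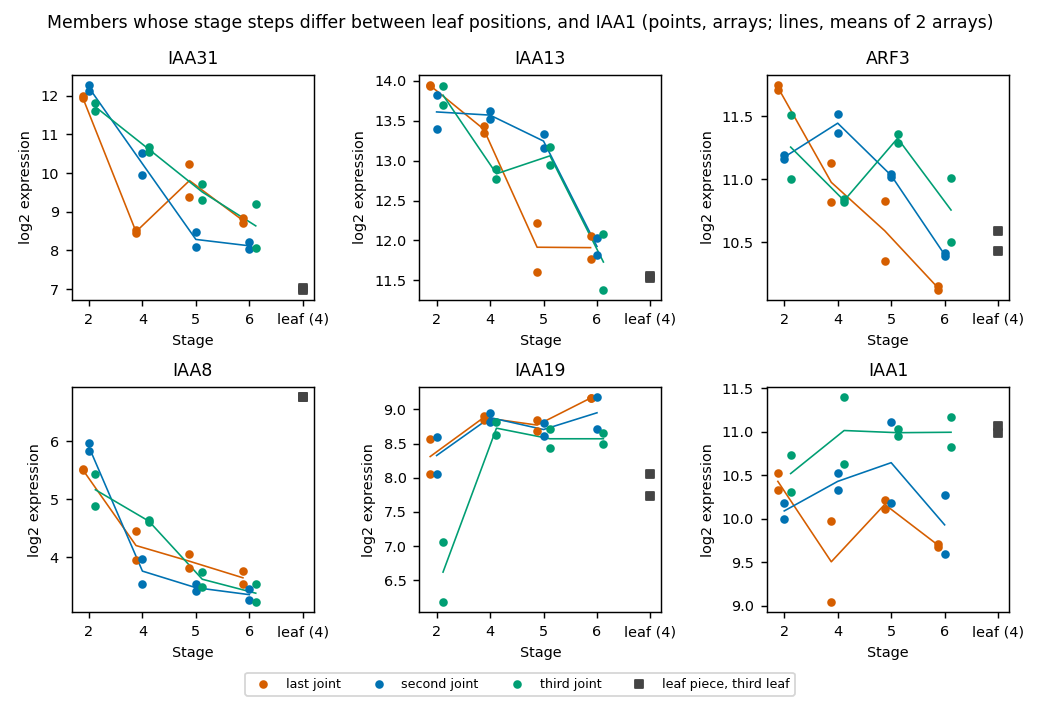
Log2 expression on each array by stage and joint position for the 5 members whose stage steps differed between positions, and for IAA1; lines join means of 2 arrays and squares are the stage 4 leaf piece. IAA31 in the last joint dips to 8.44 and 8.53 at stage 4 and is at 9.37 and 10.24 at stage 5, and IAA19 is lowest in the third joint at stage 2.

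Whether a stage step differed between positions was asked with limma's F-test over 6 contrasts at an adjusted p under 0.05. It was passed by 5 of 43 members, 11.6% against 5.48% of all probe sets: IAA31, IAA13, ARF3, IAA8 and IAA19. IAA31 had the largest F of the members (13.53, adjusted p = 0.00196). From stage 2 to 4 it fell by 3.47 in the last joint, by 1.97 in the second and by 1.09 in the third, each called, the last of these not without replicate 2 of stage 2 or either array of stage 4. From stage 4 to 5 the difference was 1.32 in the last joint (adjusted p = 0.0545) and -1.96 in the second. At stage 2 its 3 positions stood close together (11.60 to 12.28), and at stage 4 the last joint (8.44 and 8.53) was below the second (10.52 and 9.96) and the third (10.55 and 10.68).

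IAA13 (F = 8.229, adjusted p = 0.0133) came down at different steps. In the last joint the called drop was from stage 4 to 5, and in the second and the third it was from stage 5 to 6 (-1.32 and -1.33, limma adjusted p = 0.0039 and 0.00621). The third joint had also come down earlier, from 13.94 and 13.70 at stage 2 to 12.90 and 12.77 at stage 4, just under 2-fold. Over that step the means went from 13.94 to 13.39 in the last joint and from 13.61 to 13.57 in the second. By stage 6 its means were 11.91, 11.92 and 11.73, close to the 11.55 of the leaf piece. ARF3, one of the ARFs targeted by trans-acting small RNAs, had an F of 7.106 (adjusted p = 0.0221). It read 11.75 and 11.71 in the last joint at stage 2 and 10.12 and 10.15 at stage 6, while the third joint read 11.00 and 11.51 at stage 2 and 11.29 and 11.36 at stage 5. None of its single steps was called.

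IAA8 (F = 5.773, adjusted p = 0.0433) and IAA19 (F = 5.533, adjusted p = 0.0489) passed narrowly. Leaving out 1 array at a time, the count of members that passed ran from 2 to 8. IAA19 read 7.06 and 6.18 in the third joint at stage 2 and 8.06 to 8.59 in the last and second. With the Gapdh covariate 1 of the 5 members, IAA31, still passed.

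Several members with known roles in rice were not called in any main comparison. IAA3, whose stabilised form makes rice insensitive to auxin, stayed between 12.23 and 13.44 on all joint arrays and read 12.99 and 13.04 in the leaf. IAA10, a protein bound by a rice dwarf virus protein, ran from 8.95 to 11.37 in joints and read 11.67 and 11.76 in the leaf, above every joint array, with a joint-leaf difference of -0.82 (SE 0.386, adjusted p = 0.24). IAA23, which acts in the root tip, ran from 7.39 to 9.25 in joints, and its 2 leaf arrays spanned nearly as much (8.81 and 7.50). ARF1 ran from 8.27 to 11.00 and ARF16, of the activator class and known in phosphate starvation, from 7.17 to 9.71, with leaf arrays of 9.20 and 8.42 for ARF1 and 7.18 and 7.54 for ARF16. ARF16 replicates differed widely in places, reading 9.71 and 7.97 in the third joint at stage 6.

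Other Aux/IAA genes moved within 1 position or varied between paired arrays. IAA25 had joint group means from 6.86 in the second joint at stage 2 to 10.11 in the third at stage 6, and rose by 1.91 from stage 2 to 4 in the second joint (adjusted p = 0.0375), a call lost without any 1 of the 4 arrays compared (adjusted p up to 0.238). IAA9 rose by 2.39 over that step in the third joint (5.40 and 4.87 to 7.78 and 7.27, adjusted p = 0.00958), a call lost with the Gapdh covariate and without replicate 2 of stage 2 or replicate 1 of stage 4. IAA10 rose by 1.23 in the second joint (adjusted p = 0.0392), but the difference was 0.59 (adjusted p = 0.477) without replicate 1 of stage 2, and the call was lost in 6 of 33 alternatives. Against the leaf, IAA25 (-1.45, adjusted p = 0.159), IAA9 (1.64, adjusted p = 0.12), IAA2 (1.39, adjusted p = 0.0785) and IAA14 (1.31, adjusted p = 0.178) differed by over 2-fold without passing the test. IAA24 ran from 9.68 to 11.00 in joints and read 10.01 and 10.20 in the leaf. The dim IAA16, IAA20 and IAA26 kept within a span of 0.25, 0.88 and 0.64 between joint group means.

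Of the uncalled ARFs, several lay above the leaf throughout without passing the test at stage 4. ARF14 ran from 7.72 to 9.07 in joints against 7.67 and 7.22 in the leaf (0.69 at stage 4, adjusted p = 0.127), with no overlap between any joint array and the leaf. ARF2 (0.61, adjusted p = 0.0703) and ARF9 (0.59, adjusted p = 0.224) had joint arrays of 9.13 to 10.46 and 10.56 to 12.06 against leaf arrays of 9.18 and 8.96, and 10.87 and 10.57, so single joint arrays overlapped the leaf. ARF2, ARF3, ARF14 and ARF15 are the ARFs known as targets of trans-acting small RNAs. ARF15 rose by 1.24 (adjusted p = 0.00201) and ARF23 by 1.06 (adjusted p = 0.00368) from stage 2 to 4 in the second joint. Without replicate 1 of stage 2 neither was called, nor was ARF23 without replicate 2 of stage 4. The second probe set of ARF23, which was not dim, also rose in the second joint (1.45, limma adjusted p = 0.00224). In the third joint it was called lower over the same step (-1.35, adjusted p = 0.00272). It passed the F-test for steps that differ between positions (F = 9.558, adjusted p = 0.00776). ARF24 had joint group means from 9.45 in the last joint at stage 6 to 11.29 in the third at stage 2, and ARF10 had means from 7.01 to 9.17.

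The ARFs were also described by class. Of 9 names of the activator class, 3 were measured (ARF12, ARF16 and ARF17); 2 were higher in the joint and 1, ARF17, fell from stage 2 to 4. Of the 4 microRNA160 targets 3 were measured (ARF10, ARF18 and ARF22) and 1, ARF22, was called, in the joint-leaf comparison alone. For ARF10 the difference from stage 4 to 5 in the third joint was 1.68 (SE 0.479, adjusted p = 0.118). Of 4 microRNA167 targets the 2 measured, ARF12 and ARF17, were both higher in the joint. Of the 14 ARFs outside the activator class 1 was called in the joint-leaf comparison (7.14%, near the 7.41% of all probe sets) and 0 in the other main comparisons, while 2 were called from stage 2 to 4 in the second joint (14.3% against 10.9%). The activator class has too few measured members for its share to be set beside these.

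Other genes of the auxin pathway were read from lists by name. The co-repressors TPR2 and TPR3 had no calls. Of the 2 synthesis genes, FIB, a tryptophan aminotransferase, was higher in the joint than in the leaf, at 9.37 and 9.55 against 6.04 and 6.61 (SE of the difference 0.523, adjusted p = 0.000711), and YUCCA1, a flavin monooxygenase, was dim and not called. Of 9 PIN auxin exporters 5 were measured. PIN3A was higher in the joint, at 9.95 and 8.55 against 6.15 on both leaf arrays (adjusted p = 0.0055), and PIN5A was lower, at 7.80 and 7.28 against 9.14 and 8.64 (-1.35, adjusted p = 0.0217). PIN5A then had the widest stage change of the pathway genes read, from 3.35 to 4.75 on the 6 arrays of stage 2 to 7.28 to 10.01 at stage 4 (4.57, SE 0.207, adjusted p = 4.43e-11). It rose again from stage 4 to 5 (1.09, limma adjusted p = 0.0121), and the dim PIN5C rose from stage 5 to 6 (1.08, adjusted p = 0.000468). Steps of both differed between positions by limma's F-test (F = 7.986 and 6.787, adjusted p = 0.0148 and 0.0258).

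The GH3 enzymes, which conjugate auxin or jasmonate to amino acids and are often induced by auxin, had 9 genes matched by name, all of them measured. In the joint 3 were higher than in the leaf and 1 was lower: GH3.4 (3.49), GH3.8 (3.16), GH3.2 (2.99) and GH3.5 (-1.18). From stage 2 to 4, 2 rose (GH3.2 by 3.64 and GH3.8 by 2.00) and 1, the dim GH3.11, fell (-1.20). Steps of GH3.11 and GH3.8 differed between positions by limma's F-test (F = 13.9 and 6.362, adjusted p = 0.00176 and 0.0323). GH3.11 went from 7.13 and 6.67 to 4.11 and 3.70 in the third joint, and from 4.18 and 5.16 to 4.51 and 4.83 in the second. GH3.8 went from 3.46 and 4.06 to 8.26 and 7.66 in the third, and from 9.13 and 7.55 to 9.22 and 8.37 in the last. The 6 arrays of GH3.2 ran from 4.60 to 8.78 at stage 2 and from 8.99 to 10.58 at stage 4. From stage 4 to 5 GH3.4 fell (-1.39) and from stage 5 to 6 GH3.6 rose (1.05). SAUR39, of a family of small auxin-induced genes, rose from stage 2 to 4 (2.20, adjusted p = 0.00493) and from 5 to 6 (1.96, adjusted p = 0.0474). Its paired arrays differed widely in places, reading 7.01 and 9.70 in the third joint at stage 6.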

How the data were processed

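The authors deposited log2 expression values per probe set, made by RMA (the method is named in the submitters' processing notes, its version and settings not given in the sources used here). Tissue was cut by hand and total RNA extracted with Trizol, per the labels' protocols. The table holds 57381 probe sets, of which 123 controls were left out, and array medians agreed within 5.07 to 5.17, so nothing was rescaled. The number of arrays limits the precision.

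Members, lists and tests were chosen with earlier results of these data known. Names came from the platform annotation and the RefSeq gene table of assembly ASM3414082v1. As 8 measured genes also carry another member's number as a synonym (IAA4, IAA5, IAA13, ARF1, ARF4, ARF12, ARF18 and ARF23), each number was given to 1 gene, and a role reported for a number may belong to another gene. The synonyms are, in that order, IAA20, IAA8, IAA1, ARF16, ARF2, ARF8, ARF10 and ARF1. The brightest single-gene probe set stood for a gene; 9 members had several, and those of IAA4, IAA17 and IAA23 are of types that can match similar transcripts. As the files name no genome build, coordinates are left out.

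All arrays entered 1 fit in limma 3.58.1 (R 4.3.3) with 13 group means and no block, leaving 13 residual degrees of freedom (prior 3.52, prior SD 0.206). Tests were two-sided, as described with the results; tables were made with Python 3.11.15 and pandas 2.3.3. Of pathway genes, the TIR1/AFB receptors, AUX/LAX importers and ABCB exporters were not matched by name. Genes were named by a rule: the 3 largest called rises and falls of each comparison, the 3 largest F values and 15 chosen members; others are given to complete a count or a class and were chosen after their values were seen. Summed marker levels are log2 of summed unlogged values. The fit was tested on simulated data. Alternatives were the replicate number as a block, the Gapdh difference as a covariate, further quantile normalization, no dim probe sets, 1 probe set per gene, the second brightest probe set, only the arrays compared, no fold limit, each array left out, and the array with a low quartile and the stage 4 array with a high Gapdh difference left out together.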

Additional observations from a re-analysis of the deposited data

Results flagged for a closer look

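The stage steps of 5 members differed between leaf positions by the F-test of that difference. IAA31 had an F of 13.53, IAA13 of 8.229, ARF3 of 7.106, IAA8 of 5.773 and IAA19 of 5.533. For IAA31 the call held in 32 of 33 alternatives, the exception being its dim second probe set. For IAA13 it held in 30 of 32, and was lost with the Gapdh covariate and without replicate 2 of the last joint at stage 5. For ARF3 it held in 27 of 32. For IAA8 and IAA19 it held in 11 and 8 of 32, so the call for these 2 genes turned on single arrays. The part of the Gapdh difference, which was high in the last joint but not in the others at stage 5, was tested only as a covariate.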

How the results depend on the processing

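Over all comparisons, 63 called results of members were recomputed, giving 2101 values, of which 1953 kept direction and call, 145 lost the call and 3 reversed; 27 results held throughout. The reversals came with the second brightest probe set, which is dim: IAA8 in the second joint from stage 2 to 4 (0.02), IAA31 in joint against leaf (-0.18) and IAA31 in the second joint from stage 4 to 5 (0.01). Without dim probe sets, or with the second probe set, 0 members were lower in joint against leaf. With no fold limit, 7 members rose and 12 fell from stage 2 to 4, 1 fell from 4 to 5 and 6 fell from 5 to 6; 1 was higher and 6 lower in the last against the third joint, 1 higher in the last against the second, and 1 higher and 1 lower in the second against the third. With the Gapdh covariate, 0 rose from stage 5 to 6, 2 were lower in the last than in the third joint and 1 passed the F-test. Without dim probe sets or with 1 probe set per gene, 1 was lower in the last than in the third joint. Without the second joint array of stage 5 and the third joint array of stage 4 that stood apart, 3 passed the F-test.

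Leaving out 1 array at a time gave, for joint against leaf, 8 to 9 higher and 1 lower. From stage 2 to 4 it gave 1 to 3 higher and 6 to 7 lower: 1 higher, without IAA19, when replicate 2 of stage 2 was left out in any of the 3 positions, and 6 lower, without IAA7 (-0.95 at the smallest), without replicate 1 of the last or replicate 2 of the second or the third joint at stage 2. From stage 4 to 5 it gave 0 to 1 higher (1 without last joint stage 4 replicate 1) and 0 lower, and from 5 to 6 1 higher and 2 to 4 lower (4 without the third joint stage 6 replicate 1, where IAA13 reached -1.00). For the last against the third joint it gave 0 higher and 0 to 2 lower, 2 without replicate 1 of stage 4 in either joint and 1 without either second joint array of stage 5 or replicate 2 of the third joint at stage 6. For last against second it gave 0 to 1 higher, 1 without last joint replicate 1 of stage 4 or 5 or replicate 2 of stage 6, or without second joint replicate 2 of stage 2, 4 or 6. The F-test count ran from 2 to 8: 2 without last joint stage 5 replicate 2, second joint stage 4 replicate 1 or the third joint stage 5 replicate 2, and 8 without second joint stage 5 replicate 2; it was 3 without either array of the last joint at stage 2 or 6, the third joint at stage 4 or the leaf piece, and without second joint stage 2 replicate 1, second joint stage 6 replicate 2 or the third joint stage 5 replicate 1. The causes were not tested.

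Pairing by replicate number was checked by the correlation of deviations over 78 pairs of groups. It ran from -0.306 to 0.553 (median 0.0397), with 24 over 0.1, and 0.172 for joint and leaf at stage 4. Some pairs of groups correlated and others did not, so this check cannot decide whether replicate numbers pair the samples. With the replicate block the counts were 8 higher and 1 lower, 2 and 7, 0 and 0, and 1 and 2 for joint against leaf and the 3 steps, 0 for each position pair, and 7 in the F-test. Without the block 5 members passed the F-test. Over all probe sets 3525 passed with the block and 3139 without. With 2 arrays a group, precision differed between probe sets of 1 gene: IAA23 from stage 2 to 4 was 0.69 (adjusted p = 0.0624) by its brightest probe set and 0.86 (adjusted p = 0.009) by its second, which was also called in the third joint (1.57, adjusted p = 0.00929).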

Other observations

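Levels varied between paired arrays more in some members than in others. IAA9 read 9.48 and 6.47 on the arrays of the second joint at stage 2, the widest gap of any member and group, and IAA25 read 11.03 and 9.18 in the third joint at stage 6. IAA2 read 11.67 and 12.04 in the last joint at stage 2 and 10.63 and 9.04 in the third. IAA17 stayed between 13.51 and 14.12 on all joint arrays, and IAA5 was between 11.02 and 11.45 at stage 4 with none of the stage 6 arrays above 10.88.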
